A study of Macaca mulatta with 27 samples.

Results

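RNA of rhesus PSCs kept in LCDM (EPS) medium was compared with that of rhesus PSCs kept in t2iLGöY medium, both deposited under the label of naive cells. The comparison took the 3 libraries of LCDM (EPS) cells and the 3 of t2iLGöY cells, 6 of the 27 libraries of the series, by the names of their columns, and all 17967 gene symbols of the count tables. The study set primed rhesus PSCs beside cells from 7 protocols meant to bring them to the naive state, in which the transcriptome resembles that of the epiblast before implantation. Both groups derive, by the study's account, from LyonES-tGFP-(S3), a single clone of a rhesus ESC line. The clone carries tauGFP under the ubiquitous CAG promoter and STAT3-ERT2, a STAT3 fused to a part of the estrogen receptor, which enters the nucleus when tamoxifen is added. Neither of these media contains tamoxifen, and all reprogrammed cells were passaged as single cells. The labels give no age, passage number, or time in medium, and do not say whether the 3 replicates of a group were separate cultures. If they were not, the p-values below measure a spread that may be technical.

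By general knowledge, the media share LIF, a cytokine that signals through LIFR and gp130 to STAT3, and CHIR99021, an inhibitor of GSK3 that stabilizes beta-catenin, as Wnt ligands do. LCDM adds dimethindene maleate, an antihistamine, and minocycline, an antibiotic that also acts on PARP1, and is meant to give extended pluripotent stem cells (EPS), able to enter both embryonic and extraembryonic lineages. The t2iLGöY medium adds PD0325901, which blocks MEK and so ERK activation by FGF, Gö6983, which blocks protein kinase C, and Y-27632, which blocks ROCK. It therefore inhibits MEK and protein kinase C, and LCDM does not.

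LCDM (EPS) libraries held from 16799803 to 20046414 counts and t2iLGöY libraries from 12827393 to 13849980, so that 3 counts, taken as the floor of quantification, amounted to between 0.141 and 0.217 CPM (counts relative to library size, with TMM scaling over all libraries). Libraries of the same group were not repeats of one library, since the chi-square per gene between them ran from 7.74 to 20 (about 1 for repeat sampling), and their log2 CPM correlated at 0.938 to 0.978 across genes. Between the groups this correlation was 0.879 to 0.899. Genes are not independent replicates, and these values are descriptions.

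POU5F1 and NANOG, which mark pluripotent cells, were far below the primed level in both groups. POU5F1, which encodes OCT4, stood at 5.98, 2.36, and 1.14 CPM in the LCDM (EPS) libraries and at 1.64, 1.8, and 0.0723 in those of t2iLGöY, against 1100 to 1300 CPM in the 6 primed libraries. NANOG was at or under the floor in all 6 libraries, against 107 to 157 CPM in primed cells. SOX2, shared by pluripotent and neural stem cells, was at 323 to 338 CPM in LCDM (EPS) and 99.7 to 116 in t2iLGöY, against 214 to 337 in primed cells. Both groups held neuronal transcripts, such as TUBB3, a tubulin of neurons, at 699, 720, and 695 CPM in LCDM (EPS) and 666, 668, and 702 in t2iLGöY, against 7.04 to 12.9 in primed cells. The libraries are therefore called by their medium and not as naive cells. In bulk RNA, fewer cells of a type and less RNA per cell cannot be told apart, and this holds for every result here.

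One transcript also went against the description of a common clone. ESR1, the estrogen receptor gene, of which the STAT3-ERT2 transgene holds a part, stood at 413, 365, and 350 CPM in t2iLGöY and at 0.285, 0, and 0.379 in LCDM (EPS), with at most 7 counts in an LCDM (EPS) library. The primed columns split in the same way by the letter in their names: ESR1 lay between 355 and 399 CPM in the 3 of letter K and at most at 0.863 in the 3 of letter J. Of the remaining groups, NHSM-v, 4i/L/b, and TL2i cells held 226 to 1280 CPM, E-NHSM at most 0.612, and TL-CDK8/19i from 0.111 to 35. STAT3 was lower in LCDM (EPS) as well, at 154, 161, and 149 CPM against 303, 293, and 299. Counts per gene symbol cannot separate reads of the receptor gene from reads of the transgene, and whether LCDM (EPS) cells lacked the transgene, silenced it, or came from another stock was not tested. The primed letters J and K, which share no library with the comparison, differed at 469 of 12559 genes tested (3.73%), and 255 genes were called in both comparisons, 131 in the same direction (LCDM with J, t2iLGöY with K) and 124 in the opposite one. Of the genes called between J and K and tested in both, 28.7% were called between the media in the same direction. Over all genes tested between the media, 15.7% were called higher in LCDM (EPS) and 16.8% lower. Of the 12072 genes tested in both, 3969 were called between the media. Across these 12072 genes, the fold changes correlated at 0.0943 (Pearson) and -0.0176 (Spearman).

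Of 13362 genes tested by edgeR's quasi-likelihood test, 4349 (32.5%) were called at a Benjamini-Hochberg adjusted p under 0.05. Among them, 2099 (15.7% of those tested) were higher in LCDM (EPS) cells and 2250 (16.8%) were lower. The median log2 fold change of all genes tested was 0.008, on a scale where positive values mean more in LCDM (EPS), and 47% of the genes tested did not overlap between the groups. Larger changes leaned towards t2iLGöY. With a minimum of 1 on the log2 scale, 522 genes were higher in LCDM (EPS) (3.91%) and 1027 were lower (7.69%). Among the 10 pairs of LCDM (EPS), t2iLGöY, TL2i, 4i/L/b, and NHSM-v, each fitted on its own 6 libraries, this pair had the fewest genes called, the next being 4i/L/b against TL2i with 5814 (42.9%). The share called was 58.9% to 59.7% for LCDM (EPS) against NHSM-v, TL2i (59%), and 4i/L/b, and 44.1% for t2iLGöY against 4i/L/b, 45.8% against NHSM-v, and 48.3% against TL2i. For NHSM-v it was 50.1% against 4i/L/b and 57.7% against TL2i. By the root mean square distance of mean log2 CPM over 14752 genes, LCDM (EPS) and t2iLGöY were 1.03 apart, about as far as NHSM-v and 4i/L/b (1.03) and farther than 4i/L/b and TL2i (0.825). These pairs share libraries, and the order was not tested.

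**Figure D1:**
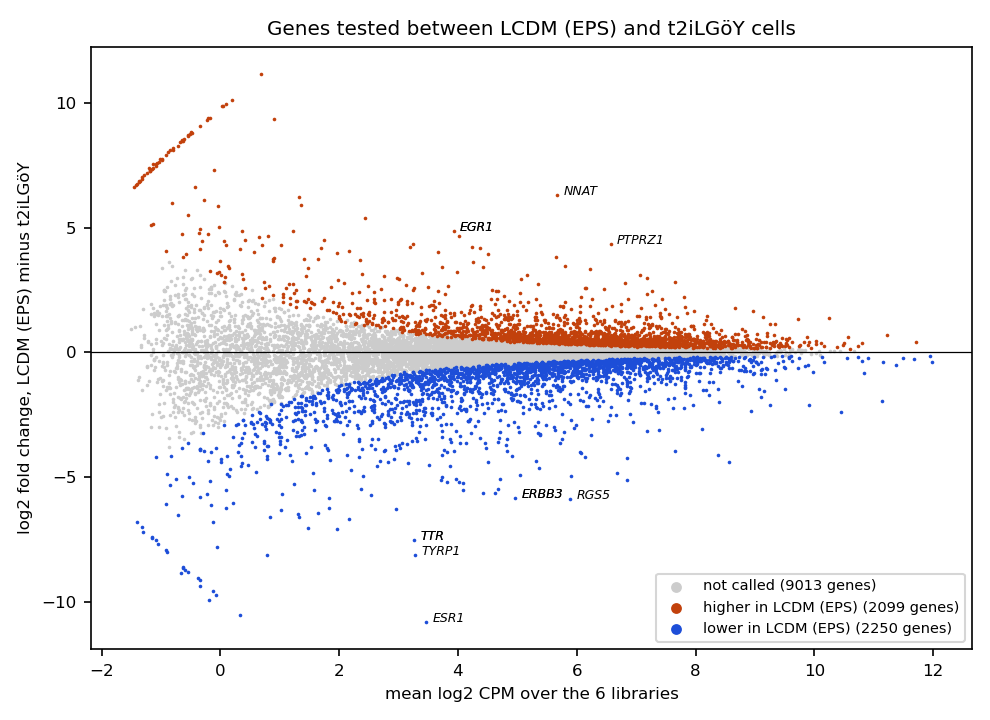
Log2 fold change (vertical axis, LCDM (EPS) minus t2iLGöY) against mean log2 CPM over the 6 libraries (horizontal axis) for the 13362 genes tested, 1 point per gene. The 2099 genes called higher in LCDM (EPS) are orange, the 2250 called lower are blue, and ESR1, at -10.80, is the lowest of the named genes. The slanted lines at the left are genes at or near 0 in one of the groups, where the fitted value depends on the prior count.

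The genes with the highest and lowest fold changes were taken from those called, without overlap between the groups, and of at least moderate level (mean log2 CPM of 3). The 10 highest included neural and glial genes. NNAT, an imprinted gene for a membrane proteolipid of developing brain, was at 456, 453, and 462 CPM in LCDM (EPS) and at 5.94, 4.94, and 5.71 in t2iLGöY, a difference of 6.32 ± 0.103 (SE) on the log2 scale (adjusted p = 9.7e-18). The primed libraries of letter J held 184 to 231 CPM of NNAT and those of letter K 15.5 to 20.8, so NNAT, like ESR1, separated letter J from letter K as it separated LCDM (EPS) from t2iLGöY. NNAT was at 179 to 190 CPM in E-NHSM, 4.29 to 9.67 in NHSM-v, and 8.36 to 11.7 in 4i/L/b. It did not follow ESR1 in every group. TL2i and TL-CDK8/19i held similar NNAT (90.5 to 105 and 86.9 to 109 CPM) but unlike ESR1 (226 to 232 and 0.111 to 35 CPM). EGR1, an immediate early gene induced through ERK, followed with 89.9, 78.5, and 76.4 CPM against 3.21, 2.74, and 2.24 (log2 fold change 4.85 ± 0.186, adjusted p = 8.6e-13). Both groups were far under the primed level of 1110 to 1770 CPM.

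SOX21, a SoxB2 factor of neural progenitors, stood at 82.4, 85.9, and 79.2 CPM in LCDM (EPS) and at 1.77, 4.4, and 3.32 in t2iLGöY. PTPRZ1, a receptor tyrosine phosphatase of radial glia, was at 439, 446, and 434 CPM against 17.9, 18.6, and 25.5, while primed cells held 624 to 829. The log2 fold changes were 4.65 for SOX21 and 4.36 for PTPRZ1. For each of these genes the 3 LCDM (EPS) libraries lay close together. That they lay above all t2iLGöY libraries was required by the choice of genes. The other 6, between 3.95 and 4.34, were MLC1, a membrane protein of astrocytes, COL6A3, a chain of collagen VI, LHX1, a LIM homeodomain factor, SEMA5B, a semaphorin, OPRK1, the kappa opioid receptor, and C1H1orf61. SEMA5B was at 94.1, 114, and 94 CPM against 6.28, 1.2, and 8.6.

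The 10 lowest values belonged, after ESR1 (log2 fold change -10.80 ± 0.226, adjusted p = 1.4e-16), to TYRP1, TTR, RGS5, ERBB3, COL14A1, PENK, OTX1, SOX10, and NPR3. TYRP1, an enzyme of melanin synthesis, was at 0, 0.896, and 1.03 CPM in LCDM (EPS) and at 223, 91, and 226 in t2iLGöY. TTR, the thyroxine carrier made by choroid plexus and liver, was at 0.455, 1.79, and 0.0541 CPM against 152, 168, and 123. The fold changes were -8.12 ± 0.430 for TYRP1 and -7.54 ± 0.351 for TTR. Both transcripts were nearly absent from primed cells too, where neither exceeded 0.443 CPM.

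RGS5, a regulator of G-protein signaling found in pericytes, was at 9.96, 7.68, and 6.06 CPM in LCDM (EPS) and 414, 561, and 372 in t2iLGöY. ERBB3, a neuregulin receptor of the neural crest, was at 6.32, 3.11, and 3.63 CPM against 251, 148, and 311, and SOX10, a master factor of the crest, at 2.16, 4.62, and 5.41 against 192, 102, and 241. OTX1, a homeobox factor of forebrain and midbrain, was at 1.2, 2.88, and 3.68 CPM against 120, 132, and 94.4. None of these ranges overlapped, as the choice of genes required. COL14A1, a fibril-associated collagen, PENK, the enkephalin precursor, and NPR3, a natriuretic peptide receptor, fell by 5.65, 5.62, and 5.25 on the log2 scale.

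**Figure D2:**
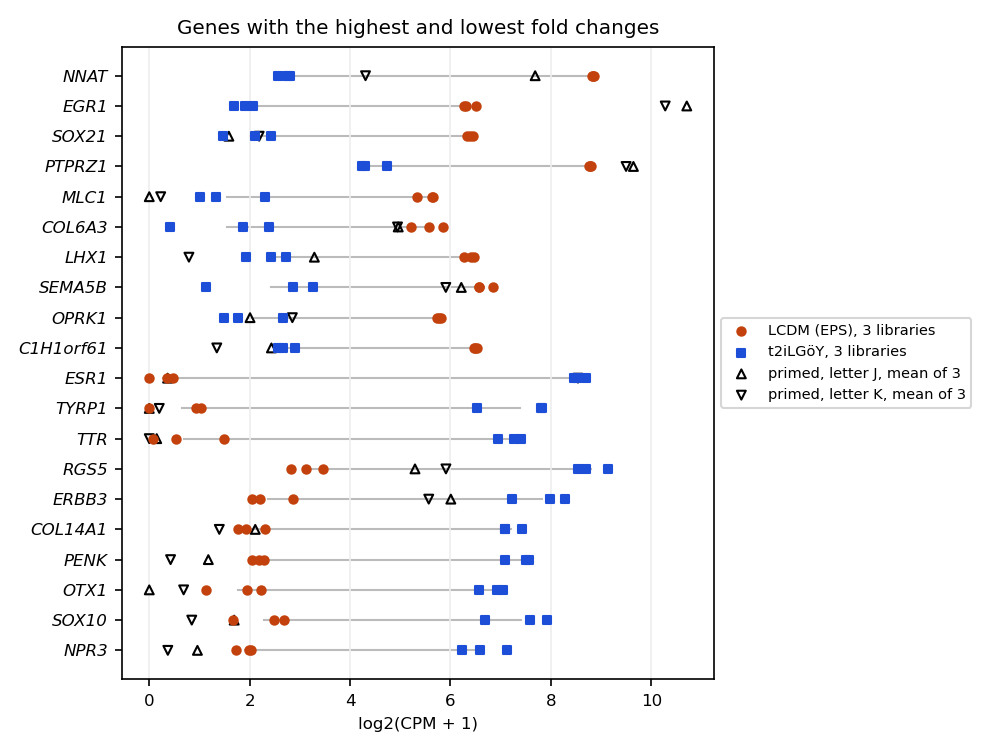
Log2(CPM + 1) of the 10 genes with the highest and the 10 with the lowest fold changes, 1 row per gene. Orange circles are the 3 LCDM (EPS) libraries and blue squares the 3 t2iLGöY libraries, and open triangles are the means of the 3 primed libraries of letter J (pointing up) and of letter K (pointing down). The groups do not overlap for any gene, which the choice of genes required. The primed letters part widely at ESR1 (at most 0.863 against 355 to 399 CPM) and NNAT (184 to 231 against 15.5 to 20.8 CPM).

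The 42 gene lists held 805 symbols of the tables, of which 383 were called. Counts below give, for each list, the members called higher and lower in LCDM (EPS) cells out of those tested, to be read against 15.7% and 16.8% of all genes. Some genes stand on several lists.

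**Figure D3:**
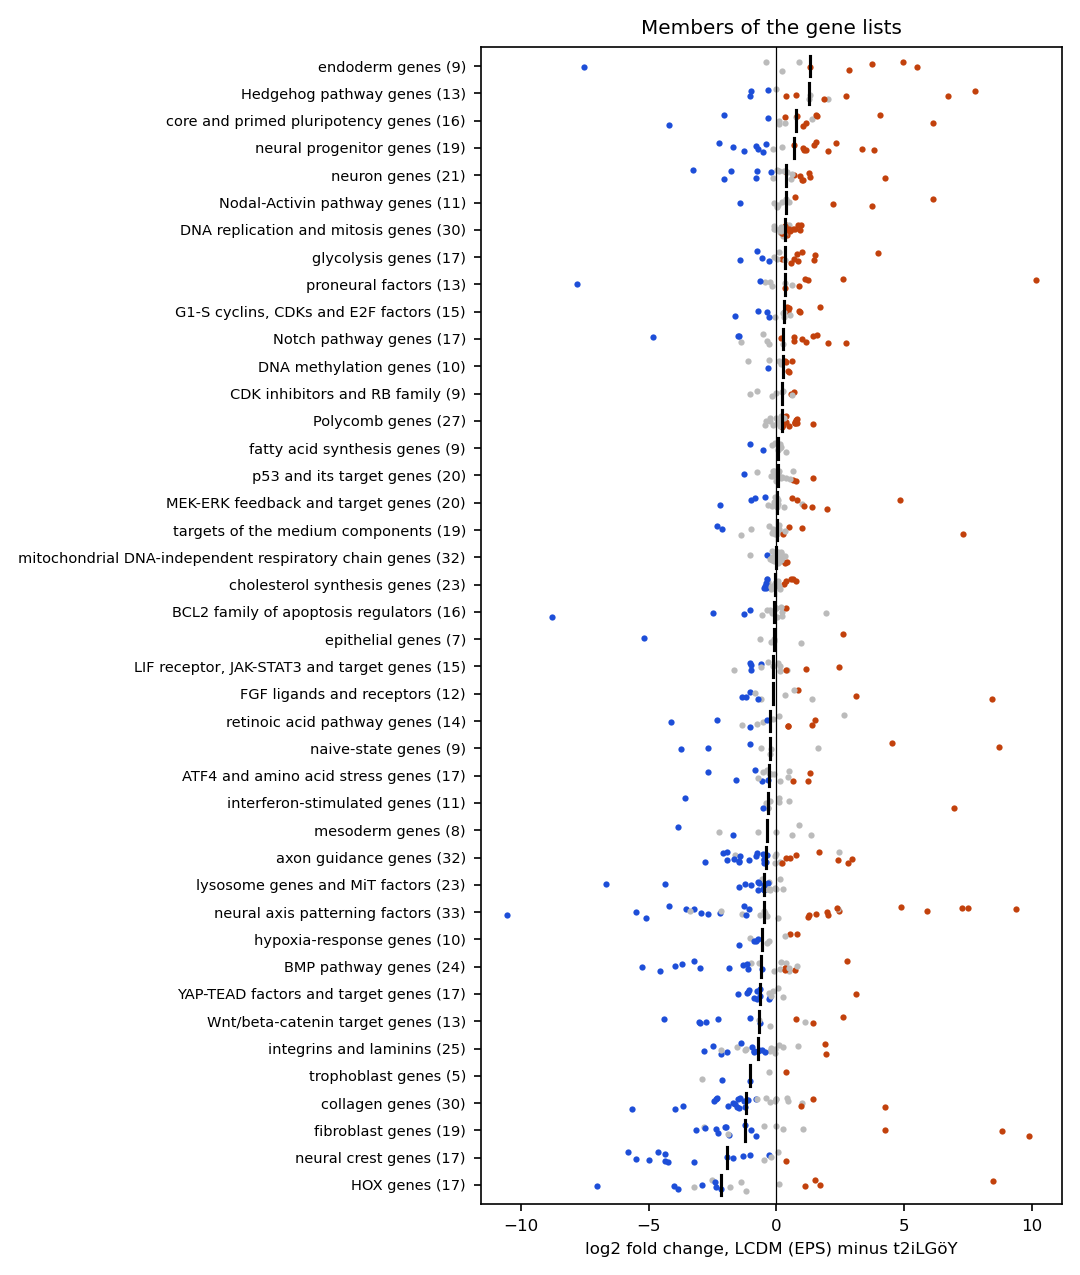
Log2 fold change (LCDM (EPS) minus t2iLGöY) of each tested member of the 42 gene lists, 1 row per list in the order of the list medians (black bars), with the number of members tested in parentheses. Orange points were called higher in LCDM (EPS), blue points lower, and grey points were not called. Medians run from -2.18 for HOX genes to 1.30 for endoderm genes.

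Genes of the naive state were low in both groups. Of 19 on the list, 10 were too low to be tested, among them KLF17, NR0B1, and DPPA3 with no read in any of the 6 libraries. Of the other 9, 2 were higher and 3 lower in LCDM (EPS), with a median of -0.25. ESRRB, an orphan nuclear receptor of the mouse naive state, was at 5.01, 6.32, and 7.47 CPM in LCDM (EPS) and 0, 0, and 0.795 in t2iLGöY. ZFP42, also known as REX1, was at 3.76, 4.01, and 1.73 CPM against 0 in each, at least 15.3-fold higher, and still far below the 48.4 to 75.1 CPM of primed cells. On the other side were TBX3 (0.398, 0.0471, and 0.433 CPM against 4.78, 3.2, and 3.32), TFAP2C, and KLF4. TFAP2C, a factor of the naive state and of trophoblast, fell by 1.05 (adjusted p = 0.0061). KLF4, called at 0.576 CPM on average against 3.62 (log2 fold change -2.69, adjusted p = 0.017), lost its call without t2iLGöY replicate 1 or without any 1 of the LCDM (EPS) libraries (adjusted p from 0.052 to 0.076). TFE3 (log2 fold change -0.25, adjusted p = 0.22) and SUSD2 (-0.20, adjusted p = 0.68) were not called, and TFCP2L1 was not tested.

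Of the core and primed pluripotency genes, 8 of 16 tested were higher in LCDM (EPS) and 3 lower (median 0.78). Without LCDM (EPS) replicate 1 or without t2iLGöY replicate 3, 5 were higher, and 13 were with all 8 groups in one fit. SOX2, a factor of pluripotent and neural stem cells, was at 325, 323, and 338 CPM against 99.7, 116, and 111 (log2 fold change 1.55 ± 0.0815). OTX2, which marks the primed epiblast and the anterior neural tube, was at 14.1, 20.2, and 15.8 CPM in LCDM (EPS) and at 306, 332, and 259 in t2iLGöY (log2 fold change -4.20 ± 0.134). L1TD1, an RNA-binding protein of pluripotent cells, was lower in LCDM (EPS) by 2.06. NODAL, a TGF-beta ligand of the epiblast, was at 5.58, 3.77, and 2 CPM against 0.136, 0, and 0, at least 18.3-fold higher. POU5F1 was not called (log2 fold change 1.37, adjusted p = 0.29), although with all 8 groups in one fit its adjusted p was 0.024.

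The proteins on which the media act were measured through 24 genes, of which 19 were tested, with 4 higher, 2 lower, and a median of 0.02. Without LCDM (EPS) replicate 3, 2 were higher. The kinase genes MAP2K1 and MAP2K2, which encode MEK, differed by 0.02 and -0.19 on the log2 scale and were not called. Among protein kinase C genes, PRKCQ was at 4.89, 5.14, and 4.76 CPM in LCDM (EPS) and at or under the floor in t2iLGöY (at least 23.8-fold higher), and PRKCB was higher by 0.99 (adjusted p = 0.022), a call lost without LCDM (EPS) replicate 1 or 3 (adjusted p 0.13 and 0.085). PRKCE (log2 fold change -2.31) was lower, as was PRKD1 (-2.14), which encodes the related protein kinase D1. ROCK1 rose by 0.47 and ROCK2 was not called. HRH1, which encodes the histamine receptor bound by dimethindene, and the muscarinic receptor genes CHRM1 and CHRM4 did not exceed 0.0759 CPM on average in either group.

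Feedback and target genes of MEK-ERK showed no common direction. Of 20 tested, 6 were higher and 4 lower (median 0.03). Apart from EGR1, those higher in LCDM (EPS) included the ETS factors ETV4 (10.6, 13.7, and 11.5 CPM against 2.66, 2.8, and 3.4) and ETV5 (log2 fold change 1.39), and the ephrin receptor EPHA2 (1.07). IL17RD, which encodes the FGF antagonist Sef, was lower by 1.01. The phosphatase DUSP6, an ERK feedback inhibitor, was at 15.4, 16.7, and 16.1 CPM against 12.9, 18.8, and 14.7, and SPRY4 at 10.7, 13.2, and 9.69 against 9.76, 13.8, and 7.73. For both genes the groups overlapped, and both lay far under primed cells, which held 523 to 695 CPM of DUSP6 and 251 to 488 CPM of SPRY4.

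On the list of LIF receptor, JAK-STAT3, and target genes, 3 of 15 tested were higher and 4 lower (median -0.12). LIFR was lower by 0.61, STAT3 by 1.00, its target SOCS3 by 1.01, and OSMR, the oncostatin M receptor, by 1.03. SOCS3 was at 19.8, 21.1, and 22.3 CPM in LCDM (EPS) and 41.3, 42.9, and 38.7 in t2iLGöY. CNTFR, a receptor subunit for ciliary neurotrophic factor, rose by 1.14. The other higher members were GBX2 and MCL1, which stand on the list as targets. Over the alternatives, GBX2 ranged from 2.02 to 3.52 and MCL1 from 0.33 to 0.41, and both kept their calls. The targets called thus had no common direction. STAT3 counts can include reads of the transgene, as described above for ESR1.

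Targets of Wnt/beta-catenin were lower in LCDM (EPS) for 7 of 13 tested and higher for 3 (median -0.70). AXIN2, a feedback inhibitor that reads out the pathway in most tissues, was at 144, 146, and 149 CPM against 290, 303, and 278 (log2 fold change -1.04 ± 0.0751, adjusted p = 4.1e-09), where primed cells held 4.43 to 10.6. Both groups were thus well above primed cells, t2iLGöY by more. LEF1, a DNA-binding partner of beta-catenin, was at 18, 19.7, and 20.1 CPM against 91.9, 73.4, and 106. TNFRSF19 and BAMBI, a BMP pseudoreceptor, fell by 3.02 and 2.98. Conversely, RNF43 and ZNRF3, the ubiquitin ligases that remove Frizzled receptors from the membrane, rose by 2.59 and 0.76.

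Wnt ligands themselves are a family examined after its values were seen and given without a test of the family. WNT1, made by the dorsal midline and the isthmus of the midbrain, was at 17.8, 23.3, and 18.3 CPM in LCDM (EPS) and at 677, 702, and 626 in t2iLGöY. WNT4 was at 10.5, 13.6, and 8.72 CPM against 339, 370, and 289, and WNT3A at 21.4, 22.4, and 21.3 against 93.7, 91.5, and 110. In the opposite direction, WNT7B was at 32, 31.6, and 24.1 CPM against 6.75, 3.54, and 3.25, and WNT3 at 75.4, 73.7, and 59.2 against 31.7, 27.5, and 30.6. Of 16 ligand genes tested, 9 were called lower and 3 higher (median -1.90). Summed over the 19 ligand genes, LCDM (EPS) libraries held 183 to 226 CPM and t2iLGöY libraries 1250 to 1440, and primed libraries held 84 to 116.

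BMP pathway genes were lower for 11 of 24 tested and higher for 4 (median -0.62), the latter being 2 without LCDM (EPS) replicate 3. The ligand BMP2 was at 2.5, 3.25, and 3.14 CPM against 64.9, 75, and 64.2, BMP4 fell by 5.28, and GDF7, a ligand of the roof plate, by 3.97. The targets were mixed: ID1, ID3, and MSX1 were lower by 1.14, 1.85, and 3.23, and ID2 and ID4 higher by 0.34 and 0.71, calls that were not kept in every alternative. The receptor BMPR1B was at 115, 97.4, and 108 CPM against 14.3, 13.9, and 17.8. Of 11 Nodal-Activin genes tested, 4 were higher and 1 lower (median 0.37), against 7 and 2 with all 8 groups in one fit and 2 higher with at least 10 counts in every library. FST, which encodes the activin antagonist follistatin, rose by 2.21, and the activin subunit INHBA fell by 1.41.

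FGF receptors exchanged places between the media. FGFR3, common in the ventricular zone of spinal cord and hindbrain, was at 383, 400, and 406 CPM in LCDM (EPS) and 39.9, 48.4, and 45.8 in t2iLGöY. FGFR1 was at 264, 276, and 267 CPM against 147, 152, and 141, whereas FGFR2 was at 279, 291, and 278 against 706, 774, and 593. Their log2 fold changes were 3.10 ± 0.0906, 0.83 ± 0.0760, and -1.34 ± 0.0808. Over the list of FGF ligands and receptors, 3 of 12 tested were higher and 4 lower (median -0.14).

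Notch genes were higher for 9 of 17 tested and lower for 3 (median 0.27). Higher were the ligand DLL1 (235, 234, and 250 CPM against 92.5, 89.4, and 77.8), the ligand DLL3, the receptor NOTCH1, the modifier LFNG (log2 fold change 2.71), and HES6 (1.60). Lower were NOTCH2 (-1.51), HES1 (-1.45), and HEY2 (-4.84), the last at 0, 0.99, and 0.758 CPM against 20.3, 9.81, and 20.2. Of 13 Hedgehog genes, 6 were higher and 3 lower (median 1.28), and 3 were higher without LCDM (EPS) replicate 1. PTCH1, the receptor and target, was at 108, 103, and 103 CPM against 26.6, 26.4, and 31.9. The ligand IHH was at 1.65, 0.99, and 2.22 CPM against 0 in each (at least 7.82-fold higher). Of the co-receptors, BOC rose by 0.77 and GAS1 and CDON fell by 1.01 and 1.03. Retinoic acid genes were split, 4 higher and 4 lower of 14 (median -0.25), with CYP26A1, which degrades retinoic acid, higher by 1.49 and the receptor RARG lower by 4.11.

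Neural progenitor genes were nearly all called, 10 of 19 higher and 7 lower (median 0.69). SOX1, a SoxB1 factor of the neural plate, was at 195, 190, and 194 CPM in LCDM (EPS) and 12.4, 10, and 17.3 in t2iLGöY, and did not exceed 0.143 CPM in primed cells (log2 fold change 3.82 ± 0.151, adjusted p = 1.3e-12). The POU factors POU3F2 and POU3F3 were at 317, 312, and 366 CPM against 57.9, 63.5, and 69.7, and at 252, 228, and 255 against 15.4, 29.4, and 24.9. Thus SOX1 and these POU genes were present in both groups and several times higher in LCDM (EPS). The intermediate filament gene NES was at 3060, 3140, and 3060 CPM against 1800, 1970, and 1780 (0.69 on the log2 scale). The 7 members higher in t2iLGöY included PAX6 (151, 189, and 126 CPM against 68.1, 54.5, and 76.8), SOX9 (log2 fold change -1.71), ZIC4 (-2.24), and VIM (-0.52).

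Proneural factors were higher for 6 of 13 tested and lower for 2 (median 0.32), and 1 was lower without LCDM (EPS) replicate 1 or 2 or without t2iLGöY replicate 2. PTF1A, which specifies inhibitory neurons of the dorsal hindbrain and spinal cord, was at 7.68, 9.19, and 8.66 CPM in LCDM (EPS) and 0 in each t2iLGöY library (at least 41.1-fold higher). ATOH1, which specifies granule cells and other excitatory neurons of the rhombic lip, was the reverse, at 0, 0, and 0.0541 CPM against 4.5, 5.94, and 5.93 (at least 34.5-fold lower). ST18, a zinc-finger factor of newborn neurons, was at 180, 164, and 194 CPM against 22.6, 33.7, and 30.2. Neuron genes were higher for 8 of 21 and lower for 6 (median 0.39). MAP2 was at 1380, 1260, and 1460 CPM against 497, 552, and 540, while STMN2, GAP43, and TUBB3 were not called. POU4F1 and ISL1, factors of sensory neurons, were lower by 1.78 and 3.28, and LHX1 was higher.

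Axon guidance genes were called for 25 of 32, 8 higher and 17 lower (median -0.43). ROBO3, the receptor of commissural axons, was at 402, 413, and 437 CPM in LCDM (EPS) and 49.7, 64, and 40.5 in t2iLGöY. DCC, the netrin receptor, was at 886, 860, and 970 CPM against 261, 300, and 275, and EPHA3 at 550, 496, and 592 against 62.3, 69.5, and 95.1. Of the SLIT repellents, SLIT1 was higher in LCDM (EPS) (log2 fold change 0.76). Lower were SLIT2 (-2.11) and SLIT3 (-1.93), SEMA3C (-2.79), EFNA5 (-1.92), and EPHA7 (-1.46).

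Factors that pattern the neural tube divided along its axis. Of 33 tested, 12 were higher and 12 lower (median -0.49). Lower in LCDM (EPS) were OTX1, OTX2, EMX2, and LHX2, factors of forebrain and midbrain, and LMX1A, LMX1B, WNT1, WNT3A, and MSX1, genes of the roof plate or the midbrain. EMX2 was at 0 in each LCDM (EPS) library and at 7.57, 16.3, and 8.96 CPM in t2iLGöY, at least 69.1-fold lower. LMX1A was at 28.3, 31.1, and 32.6 CPM against 206, 203, and 160.

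Higher in LCDM (EPS) were GBX2 and IRX2, which mark hindbrain and more caudal levels, PAX2 and EN2, genes of the midbrain-hindbrain boundary, and GSX1, PAX7, and OLIG1, which mark dorsoventral domains. GSX1 was at 19.7, 21, and 21.5 CPM in LCDM (EPS) and at most 0.0682 in t2iLGöY, at least 100-fold higher. PAX2 was at 15.1, 15.4, and 13.8 CPM against 1.36, 0, and 0.0723, and IRX2 at 215, 212, and 224 against 49.4, 52.8, and 59.1. PAX3, a factor of the dorsal tube and crest, overlapped between the groups, at 186, 202, and 212 CPM against 214, 155, and 197. With at least 10 counts required in every library, 7 patterning factors were called higher instead of 12, since GSX1, PAX2, and other genes near 0 in t2iLGöY could not then be tested.

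HOX genes, which mark hindbrain and spinal levels in the order of their numbers, were low in both groups, and 21 of 38 were not tested. Of 17 tested, 4 were higher and 7 lower in LCDM (EPS) (median -2.18), and the lower ones were 4 without LCDM (EPS) replicate 2, 2 with at least 10 counts in every library, and 11 under DESeq2. The summed level went the other way from the median, at 150 to 167 CPM in LCDM (EPS) and 111 to 123 in t2iLGöY. HOXA2, the only HOX gene of the second rhombomere, was at 36.5, 49.9, and 38.6 CPM against 14.5, 15.4, and 12.1. HOXB2 was at 76.7, 80.4, and 71.1 CPM against 36.5, 32.4, and 33.8, and HOXB1 at 2.9, 3.35, and 1.68 against 0 in each. Lower were HOXA3 (log2 fold change -2.18) and HOXC6 (-2.91), the latter at 0.512, 1.93, and 1.3 CPM against 8.12, 11.5, and 8.09. The 4 higher genes were of HOX groups 1 and 2, and all 7 lower ones of groups 3 to 11, an observation made after the values were seen.

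**Figure D4:**
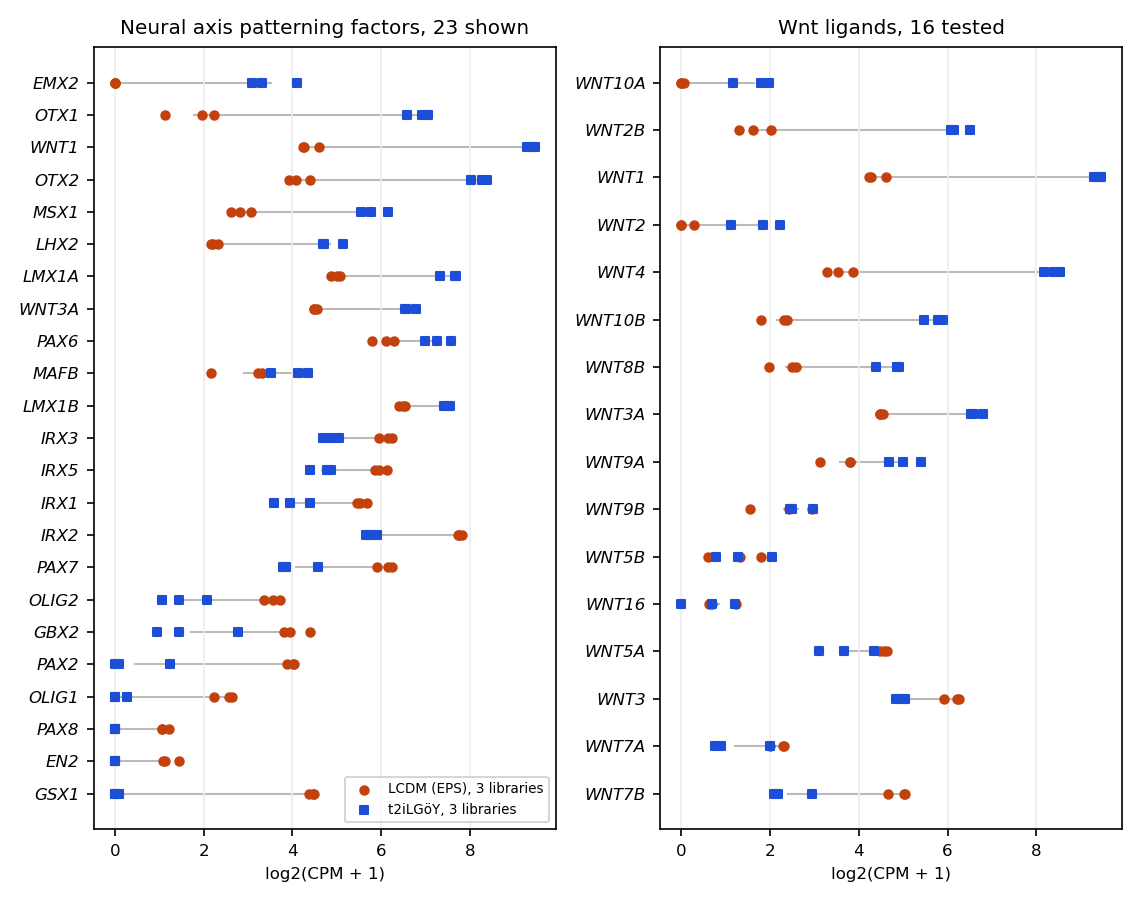
Log2(CPM + 1) of 23 of the 24 neural axis patterning factors called (left) and of the 16 Wnt ligands tested (right), 1 row per gene in the order of its fold change. Orange circles are the 3 LCDM (EPS) libraries, blue squares the 3 t2iLGöY libraries, and grey lines join the group means. OTX2 and WNT1 lie to the right in t2iLGöY (259 to 332 and 626 to 702 CPM), and GSX1 and IRX2 in LCDM (EPS) (19.7 to 21.5 and 212 to 224 CPM).

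Neural crest genes were lower in LCDM (EPS) for 13 of 17 tested and higher for 1 (median -1.93). Summed over the list, LCDM (EPS) libraries held 896 to 913 CPM and t2iLGöY libraries 1940 to 2810, while primed libraries held 641 to 778. ETS1 was at 10.2, 9.24, and 6.33 CPM in LCDM (EPS) and 219, 134, and 273 in t2iLGöY, SNAI2 at 2.62, 4.01, and 0.92 against 86.8, 52.6, and 98.9, and MITF at 9.28, 8.72, and 9.15 against 216, 102, and 224. The cadherin CDH6 was at 28.4, 24.5, and 27 CPM against 485, 486, and 495, in primed cells at 354 to 475. The crest factors PAX3 and TWIST1 were not called, and TFAP2A, the only member higher, rose by 0.39 (adjusted p = 0.014). This call was lost without LCDM (EPS) replicate 1 or 2 or without t2iLGöY replicate 1 (adjusted p 0.053, 0.070, and 0.052). With all 8 groups in one fit TFAP2A was not called either (adjusted p = 0.36).

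Genes of pigment cells, chosen after the values of TYRP1 and MITF were seen and therefore given without a test of the group, went the same way. PMEL, the melanosome fibril protein, was at 52.5, 57, and 49.2 CPM in LCDM (EPS) and at 850, 480, and 1080 in t2iLGöY. MLANA was at 0.512, 0, and 0.487 CPM against 48.8, 18.7, and 60.6, DCT at 0.512, 1.37, and 0.487 against 53.9, 20.5, and 51.7, and GPNMB at 0.626, 0.33, and 0.271 against 43.8, 21.6, and 55.9. Of 17 genes tested, 11 were called lower and 2 higher (median -3.39). KIT, the receptor of stem cell factor, went against the rest, at 107, 93.6, and 105 CPM in LCDM (EPS) and 53.6, 29.6, and 48.9 in t2iLGöY. SLC24A5 was also higher in LCDM (EPS), by 1.29.

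Within t2iLGöY, replicate 2 stood below replicates 1 and 3 for most of these genes. It was still above every LCDM (EPS) library for the 12 genes picked for the plot by library. That plot leaves out KIT, SLC24A5, and TFAP2A, the members called higher in LCDM (EPS). It was the lowest of the 3 for 13 of 17 pigment cell genes and for 13 of 17 neural crest genes tested, where over all genes tested it was lowest for 37%. The median difference of replicate 2 from the mean of the other two was -1.08 on the log2 scale for the pigment cell genes, -0.49 for the crest genes, and 0 for all genes tested. RGS5, PENK, and OTX1 were not lowered in it, so replicate 2 was not low for every gene that was high in t2iLGöY. What sets it apart was not tested. Without it, 4631 genes were called, 3957 of them among the 4349.

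**Figure D5:**
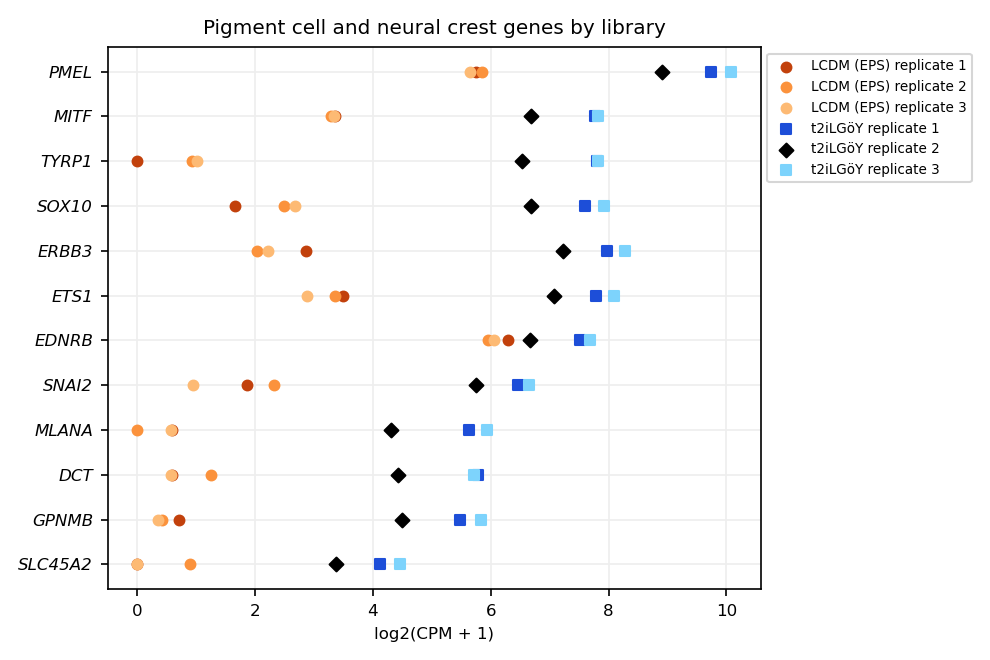
Log2(CPM + 1) of 12 pigment cell and neural crest genes in each library, 1 row per gene. The 12 were picked from the lists and leave out the members called higher in LCDM (EPS). Over the genes tested, replicate 2 was the lowest t2iLGöY library for 13 of 17 pigment cell genes and 13 of 17 crest genes. Circles in shades of orange are the 3 LCDM (EPS) libraries, blue squares t2iLGöY replicates 1 and 3, and black diamonds t2iLGöY replicate 2, which lies between them for all 12 genes, as for PMEL with 480 CPM against 850 and 1080 in the other t2iLGöY libraries and at most 57 in LCDM (EPS).

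Genes of the extracellular matrix were lower in LCDM (EPS). Of 30 collagen genes tested, 18 were lower and 3 higher (median -1.21), and their summed level was 2800 to 3250 CPM against 7470 to 8250. COL1A1 was at 619, 701, and 568 CPM in LCDM (EPS) and 3020, 2930, and 3470 in t2iLGöY (log2 fold change -2.37 ± 0.0717), and COL4A6 fell by 3.98. The 3 higher genes were COL6A1, COL6A2, and COL6A3, the chains of collagen VI, at 1.41, 0.97, and 4.24 on the log2 scale. The main chains of the basement membrane, COL4A1 and COL4A2, were not called and overlapped between the groups. Among integrins, laminins, and fibronectin, 12 of 25 tested were lower and 2 higher (median -0.71), the higher ones being 4 without t2iLGöY replicate 2. ITGA6 fell by 2.18, ITGB1 by 0.70, and FN1 by 0.71, whereas ITGB8 and LAMC3 rose by 1.91 and 1.92.

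Fibroblast genes followed the collagens, with 10 of 19 lower and 3 higher (median -1.25). FBN1, which encodes fibrillin, was at 46, 56.4, and 40.7 CPM against 334, 301, and 325, and PDGFRB fell by 3.16. The proteoglycan genes DCN and LUM, however, were found in LCDM (EPS), at 4.55, 9.99, and 6.82 CPM and at 3.47, 4.67, and 2.06, and not at all in t2iLGöY or primed libraries. Together with COL6A3 they made up the 3 higher members. The DCN bound was at least 34.4-fold and that of LUM at least 16.4-fold. With at least 10 counts required in every library, none of the 3 could be tested.

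Epithelial genes summed to 21.5 to 31.4 CPM in LCDM (EPS) and 96.8 to 134 in t2iLGöY, against 1050 to 1450 in primed cells, and of 7 tested 1 was lower and 1 higher (median -0.11). The lower one, CDH3 (P-cadherin), was at 2.16, 4.05, and 2 CPM against 104, 70.9, and 118 and made up most of the sum. The higher one, EPCAM (log2 fold change 2.60, adjusted p = 0.049), lost its call without any 1 LCDM (EPS) library or without t2iLGöY replicate 3 (adjusted p from 0.061 to 0.17). EPCAM also lost it with the replicate number as a block (adjusted p = 0.069). Of 5 trophoblast genes tested, 1 was higher, TFAP2A, and 2 were lower, TFAP2C and IGFBP3 (median -1.05), and CDX2 had no read in either group. The trophoblast list summed to 206 to 220 CPM in LCDM (EPS) and 164 to 240 in t2iLGöY, above the 99.2 to 148 of primed cells, most of it from TFAP2A, which is also on the neural crest list. Endoderm genes were higher for 5 of 9 and lower for 1 (median 1.30), and 3 were higher without LCDM (EPS) replicate 2. CXCR4, a chemokine receptor that neural cells also express, made up most of the list's level in LCDM (EPS), at 125, 137, and 120 CPM against 47.4, 55.4, and 47.3 (called in 11 of 12 alternatives). GATA4 was at 1.59, 3.87, and 2.06 CPM against 0, 0, and 0.145. With at least 10 counts in every library, 1 was higher. GATA6 (log2 fold change 2.84, adjusted p = 0.049) lost its call without any 1 LCDM (EPS) library or without t2iLGöY replicate 2 or 3 (adjusted p from 0.069 to 0.18). This call was also lost under upper-quartile normalization, with all 8 groups in one fit, and with the replicate number as a block (adjusted p 0.051, 0.072, and 0.097). The endoderm marker SOX17 was not tested. The lower endoderm gene was TTR, which is also a choroid plexus gene. Of 8 mesoderm genes tested, none was higher and 2 were lower, KDR and HAND2 (median -0.37), and 1 was lower without LCDM (EPS) replicate 1 or 3. T, which encodes brachyury, was not tested.

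YAP-TEAD factors and targets were lower for 11 of 17 and higher for 1 (median -0.63). AMOT, AJUBA, AXL, and PTPN14 fell by 1.08, 1.16, 1.10, and 1.52. CTGF, a usual readout, was not called (log2 fold change 0.04 ± 0.122, adjusted p = 0.86). CYR61, another target on the list, was called lower and kept its call in each alternative (-0.89 to -0.55). The single higher gene, F3 (3.10, adjusted p = 0.048), lost its call without any 1 library other than t2iLGöY replicate 1 (adjusted p from 0.059 to 0.21). Lysosome genes and MiT factors were lower for 13 of 23 and higher for none (median -0.47), although MITF and GPNMB, which fell most, are also pigment cell genes. Among the rest were the proteases CTSL (-1.24) and CTSD (-0.68), the cholesterol exporters NPC1 (-0.74) and NPC2 (-1.47), and HEXA (-0.98), all on the log2 scale.

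Genes of DNA replication and mitosis were higher in LCDM (EPS) for 16 of 30 and lower for none (median 0.34). PCNA was at 293, 287, and 286 CPM against 155, 159, and 155, RRM2 at 362, 385, and 323 against 185, 161, and 195, and MCM7 rose by 0.66. MKI67, the Ki-67 gene, rose by 0.34. Of the G1-S regulators, 6 of 15 were higher and 4 lower (median 0.31), and 2 were lower without LCDM (EPS) replicate 2 or 3. E2F1 and E2F2 rose by 0.92 and 1.70, CCNE2 by 0.89, and CCNA2 by 0.45, and CDK2 and CDK4 fell by 0.71 and 0.38. CDK2 in t2iLGöY was at 261, 179, and 299 CPM, and in LCDM (EPS) at 160, 161, and 146. CCND1 and CCND3 were not called (log2 fold changes -0.06 and 0.30). CCND2 (-0.31) and CCNE1 (0.49) were each called with all libraries, but CCND2 lost its call without any 1 library other than t2iLGöY replicate 2 and CCNE1 without any 1 library other than t2iLGöY replicate 1 (adjusted p from 0.05 to 0.2 and from 0.068 to 0.2). CCNE1 was also not called under DESeq2 (adjusted p = 0.056), nor CCND2 with all 8 groups in one fit (adjusted p = 0.1). Of 9 CDK inhibitors and RB family genes, 2 were higher, CDKN1B (p27, 0.56) and CDKN1C (p57, 0.70), and none lower (median 0.21), and neither of these was called with all 8 groups in one fit.

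Chromatin regulators moved little but mostly one way. Polycomb genes were higher for 13 of 27 and lower for none (median 0.21), and 7 or 8 were higher without LCDM (EPS) replicate 1 or 3. SUZ12, a core subunit of PRC2, was at 0.72 on the log2 scale, its cofactors PHF1 and PHF19 at 0.81 and 1.41, and RING1 of PRC1 at 0.72. Under upper-quartile normalization, with at least 10 counts in every library, or without t2iLGöY replicate 2, 2 were lower. Under DESeq2 or without t2iLGöY replicate 3, 1 was lower. DNA methylation genes were higher for 5 of 10 and lower for 1 (median 0.24). DNMT1 and its partner UHRF1 rose by 0.44 and 0.61, TET2 by 0.49, and DNMT3A fell by 0.35.

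Glycolysis genes were higher for 9 of 17 and lower for 4 (median 0.33), and 2 were lower without LCDM (EPS) replicate 3. PFKP, the platelet phosphofructokinase, was at 21.6, 15.9, and 19.2 CPM against 1.36, 0, and 2.17, and LDHA, lactate dehydrogenase, at 302, 303, and 253 against 104, 100, and 100. The glucose transporter genes parted, SLC2A1 higher by 0.99 and SLC2A3 lower by 1.44. Every one of these 4 genes was lower in both groups than in primed cells. Hypoxia-response genes were higher for 2 of 10 and lower for 4 (median -0.55), with BNIP3 at 0.80 and BHLHE40 at -1.48, the latter not called without t2iLGöY replicate 1 (-1.10, adjusted p = 0.065). The respiratory chain genes encoded in the nucleus were largely uncalled, with 2 of 32 higher and 1 lower (median -0.02), and the higher ones ranged from 0 without LCDM (EPS) replicate 3 to 4 without t2iLGöY replicate 3.

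Cholesterol synthesis genes were higher for 5 of 23 and lower for 5 (median -0.07), the lower ones being 2 without LCDM (EPS) replicate 1 or 3 or without t2iLGöY replicate 3, and 3 without LCDM (EPS) replicate 2. STARD4 and INSIG1 rose by 0.78 and 0.63. Of 9 fatty acid synthesis genes none was higher and 2 were lower (median 0.06), SREBF1 by 1.03 and ACACA by 0.54. ATF4 and amino acid stress genes were higher for 3 of 17 and lower for 5 (median -0.30), with ASNS and SHMT2 higher by 1.30 and 1.24 and ATF3 and DDIT4 lower by 2.69 and 1.60. Interferon-stimulated genes gave 1 higher and 2 lower of 11 tested (median -0.33), with OAS3 lower by 3.59. The higher one, IFI27, was not called without any 1 of the LCDM (EPS) libraries or with the replicate number as a block.

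The BCL2 family, which decides on apoptosis, was higher for 1 of 16 and lower for 4 (median -0.09). BMF, a BH3-only protein released on loss of attachment, was at 20.8, 23.8, and 25 CPM in LCDM (EPS) and 126, 111, and 137 in t2iLGöY (log2 fold change -2.47 ± 0.128). BBC3 (PUMA) fell by 1.28 and the prosurvival gene MCL1 rose by 0.36. The other lower members were HRK (-1.19 to -0.91 over the alternatives, called in 11 of 12) and BCL2A1, which is itself a prosurvival gene. BCL2A1 changed most of the list, at -8.8 on the log2 scale. It kept its call in all 11 alternatives in which it was tested. BCL2 itself was at 0.23 (adjusted p = 0.65), and BCL2L1 and BAX at 0.01 and 0.00. Among p53 and its targets, 3 of 20 were higher and 1 lower (median 0.06), 1 being higher without LCDM (EPS) replicate 1 or 2, and CDKN1A was at -0.01.

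Set beside primed cells, the groups lay on opposite sides of the primed level for a small set of genes. LCDM (EPS) differed from primed cells at 7782 of 13625 genes (57.1%) and t2iLGöY at 7422 of 13662 (54.3%), with 28.2% higher and 28.9% lower for LCDM (EPS) and 27.1% higher and 27.2% lower for t2iLGöY. These comparisons share the primed libraries. Of 12860 genes tested in all 3 comparisons, 43 (0.334%) were called above primed in LCDM (EPS) and below primed in t2iLGöY, and 106 (0.824%) the other way round. Every LCDM (EPS) library lay beyond all primed libraries on one side and every t2iLGöY library on the other for 42 of the 13362 genes tested between the media in the first direction and 83 in the second, 30 of which are among the 43 and 74 among the 106. The first set included NNAT, GRIA1, a glutamate receptor gene (109 CPM on average in LCDM (EPS), 52.1 in primed, and 12.3 in t2iLGöY), ADGRV1 (371, 187, and 65), and SUZ12 (152, 114, and 89.4). In the second were OTX2 (16.7, 122, and 299), PMEL (52.9, 144, and 804), ETS1 (8.59, 89.7, and 209), the protease gene MMP2 (57.7, 161, and 486), COL4A6 (16.9, 52.5, and 258), and SPARC, which encodes osteonectin (476, 645, and 1960).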

How the data were processed

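The authors isolated RNA with Trizol and the RNeasy kit, prepared directional mRNA libraries from 200 ng of RNA, and sequenced them as single reads. The deposited values are raw read counts for each gene symbol. The submitters' processing notes name bcl2fastq, cutadapt, HISAT2, and HTSeq, without versions. The genome build, the annotation, the strand setting, and the handling of reads shared between paralogs or with mouse feeder cells are not given in the sources used here, so no positions are printed and antisense or near-identical genes are uncertain. All 27 columns were mapped by name, and 0 were left over. Primed columns show the group only, with letters J and K that match no set of the labels.

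From the deposited counts, R 4.3.3 with edgeR 4.0.16 computed TMM normalization, CPM (over all 27 libraries), and the quasi-likelihood test with Benjamini-Hochberg adjustment (threshold 0.05), on the 6 libraries of the comparison and the genes kept by filterByExpr, without a block. Standard errors were derived from the fold change and the F value. A group was at the floor when each library held 3 counts or fewer, and bounds were computed against 3 counts per library. Named are the 10 genes with the highest and the 10 with the lowest fold changes (called, no overlap, mean log2 CPM of at least 3, prior count 2), the genes the study discusses, and list members. The genes, lists, and comparison were chosen with earlier results of these data known. Pigment cell genes, Wnt ligands, the letters J and K, and the values of t2iLGöY replicate 2 were examined after the data were seen. The procedure was tested on simulated data.

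Alternatives were DESeq2 1.42.0, upper-quartile normalization, no filter on low genes, a floor of 10 counts per library, an added log2 fold change of 1 or more, a fit of all 8 groups together, the replicate number as a block, and each library left out. Some genes of the lists are counted but not reported here by name.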

Additional observations from a re-analysis of the deposited data

Results flagged for a closer look

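Among the 10 highest and 10 lowest genes and the genes the study discusses, the change from primed cells differed in sign between LCDM (EPS) and t2iLGöY for 6, with the difference itself called by edgeR's test between the media. Over all genes this was so for the 43 and 106 genes given above. NNAT was at 2.05 on the log2 scale in LCDM (EPS) against primed cells and at -4.30 in t2iLGöY, a difference of 6.32. SEMA5B was at 0.61 and -3.60 (difference 4.19), COL6A3 at 0.63 and -3.62 (4.24), and NES at 0.35 and -0.37 (0.69). In the other direction, ERBB3 was at -3.66 and 2.14 (difference -5.83) and RGS5 at -2.62 and 3.23 (-5.88).

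Among the same genes, in 8 cases a single primed library stood apart from the other 5 by Dixon's criterion. Chance meets it in about 1 in 20 groups of values drawn from one normal distribution. That rate may not hold here, since the primed libraries are of letters J and K and several of the levels are low. Primed J3 also held the fewest counts of the primed libraries (7111886). The 8 cases are not set against the number of genes examined. Primed K1 was lowest for PTPRZ1 (624 CPM, the others 759 to 829) and SEMA5B (44.4, the others 64.3 to 75.7) and highest for OTX1 (1.45, the others at most 0.276). Primed J3 was highest for PENK (3.14, the others at most 1.03), KLF4 (2.43, at most 0.863), and GATA6 (7.29, at most 2.05), J2 for SOX17 (2.48, at most 0.0856), and J1 for T (2.35, at most 0.863). The groups of 3 libraries could not be examined in this way.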

How the results depend on the processing

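The count of 4349 genes called was 4506 with DESeq2, 4335 with upper-quartile normalization, 4453 without a filter, 4304 with at least 10 counts in every library, and 4057 with all 8 groups in one fit. Leaving out 1 library gave 3252 to 4631 genes, 1507 to 2310 higher and 1730 to 2321 lower. With a minimum of 1 on the log2 scale, 1549 genes were called, 522 higher and 1027 lower. With the replicate block, 4006 genes were called, 3943 of them among the 4349. Same-numbered libraries did not deviate together (correlations of 0.000516, -0.0252, and -0.00421), so the numbers were not taken as pairs. This pair of protocols had the fewest calls of the 10 pairs under DESeq2, upper-quartile normalization, no filter, at least 10 counts, and the block. For the 10 pairs, leaving out 1 library gave from 3252 to 8080 genes. The ranges were 7100 to 8080 (4i/L/b and LCDM (EPS)), 4519 to 6416 (4i/L/b and t2iLGöY), 4866 to 5901 (4i/L/b and TL2i), 5335 to 6624 (NHSM-v and 4i/L/b), 6939 to 7580 (NHSM-v and LCDM (EPS)), 5081 to 5866 (NHSM-v and t2iLGöY), 6668 to 7793 (NHSM-v and TL2i), 7137 to 8013 (TL2i and LCDM (EPS)), and 5208 to 6987 (TL2i and t2iLGöY). Against 383 list members called in all, 328 to 404 were called when 1 library was left out. Of the 383, 276 kept their call in each of the 12 alternatives in which they were tested, and none changed sign. Of 168 named genes, only BCL2, not called, changed sign, at -0.03 without LCDM (EPS) replicate 3 (range without 1 library -0.03 to 0.42), and 129 of the 162 called kept their call throughout. Of the list counts under the alternatives, 912 stayed within 1.5 times the count reported and 96 did not. At this depth, genes near 3 counts in both groups were not quantified.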

Other observations

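DDX3Y, a gene of the Y chromosome, was at 0.854, 1.93, and 2 CPM in the LCDM (EPS) libraries and at 14.1, 12.9, and 8.24 in those of t2iLGöY, with 4.91 to 13.3 in primed cells (log2 fold change -2.92, adjusted p = 2.9e-05). IGFBP5, an IGF-binding protein, was at 79.3, 95, and 77.7 CPM against 1820, 1800, and 1570, with 43.7 to 190 in primed cells (log2 fold change -4.41). Reads of DDX3Y can be shared with its X-linked copy. The study read punctate staining of the histone mark H2AK119Ub in primed cells as a sign of an inactive X chromosome. Whether any of these cells held a Y chromosome was not tested. Both genes were chosen after their values were seen.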
